A study of Rattus norvegicus with 4 samples.

Results

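The microRNAs (miRNAs) of the non-infarcted rat heart were ranked by signal within each of the 2 sham arrays of a study of myocardial infarction (MI), 1 taken at day 14 and 1 at day 2 after surgery. The ranking holds the 267 rat probes that carry the same probe ID and the same rat name on both arrays, out of 677 rat probes on the day 14 array and 348 on the day 2 array. The 2 arrays are 2 of the 4 in the series. Both hybridized RNA of heart tissue from male Wistar rats whose chest and pericardium had been opened without tying off an artery. Each was made from total RNA (TRIZOL, DNase-treated) of 3 pooled rats, labelled with the dye Hy3, from 500 ng of RNA at day 14 and from 1 µg at day 2. The day 14 array was a miRCURY LNA array of generation 6 with miRBase 16 names, whose capture probes contain locked nucleic acids, and the day 2 array was version 11 with miRBase 12 names. The other 2 arrays hold hearts at day 14 and day 2 after the same surgery with the left anterior descending artery tied off. They serve here only for correlations of ranks between arrays within and across generations. Sham and MI arrays of one day also differ by the infarction.

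A miRNA is cut from a hairpin transcript, and either arm of the hairpin can give a mature strand. A mature strand recognises target messenger RNAs mainly through its seed, the bases near its 5′ end, so miRNAs with one seed share many predicted targets. On these arrays an asterisk marks the arm taken to be the minor one when it was named, and other hairpins carry 5p and 3p names. Heart muscle is known for miR-1, the miR-133 miRNAs, miR-208 and miR-499, the last 2 of which lie within myosin heavy chain genes.

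Because array generation and RNA amount differ between the days, signals were compared within an array only and no fold change between the days is given. Net signal is the median foreground minus the median local background of a spot, averaged over 4 spots at day 14 and 3 at day 2. All SDs below are over these spots, which are technical: with 1 array of pooled RNA per day, no value carries an error between animals and no test was possible. A rank of 1 is the brightest probe. Probes differ in how well they capture their miRNA, so a rank is an order of signal and not of molecules. In whole heart tissue, fewer cells of a type and less RNA per cell cannot be told apart.

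Some features of the arrays precede the results. The scan header of the day 2 sham array names its image with a mouse prefix, although its labels name rat and the other 3 headers carry the rat prefix; whether this bears on the values was not tested. At day 2 1 set of spots (blocks 37 to 48) deviated by a median of -1.53 on the log2 scale and was left out. Its background was 526.5 intensity units, and that of the sets kept was 279 to 349. Median background over rat probes was 93 at day 14 and 306 at day 2. Detection required a foreground more than 2 background SDs above the local background, met in 50% or more of the spots of a probe. On this rule 94 matched probes were detected at day 14 (35.2%), 124 at day 2 (46.4%) and 82 on both (30.7%).

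RefSeq (build GRCr8) held the mature sequence of 64 of the 82 miRNAs detected on both arrays and of all 20 highest. The 10 highest are shown first, since they carry most of the signal of the matched probes, with the seed (bases 2 to 8) in capitals. The array names of these, without an arm, were matched by hand to the arm that current names give.
miR-22: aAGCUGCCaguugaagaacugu
miR-126: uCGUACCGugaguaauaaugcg
miR-30c: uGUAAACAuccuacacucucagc
miR-29a: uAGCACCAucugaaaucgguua
miR-143: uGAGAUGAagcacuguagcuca
miR-24: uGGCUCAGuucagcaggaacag
miR-125b-5p: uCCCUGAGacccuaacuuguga
miR-1: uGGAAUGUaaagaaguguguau
miR-451: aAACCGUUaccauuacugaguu
miR-23a: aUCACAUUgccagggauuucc
All 10 have different seeds, so no pair of them is joined by this part of the sequence.

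Among matched probes with a RefSeq sequence, relatives of 4 of these with the same seed were also detected on both arrays. Probes of such relatives could share signal where the rest of the sequence is close. The miR-30 seed GUAAACA is shared by miR-30c and miR-30e, and the miR-29 seed AGCACCA by miR-29a, miR-29b and miR-29c. The seed CCCUGAG joins miR-125b-5p with miR-125a-5p and miR-351, and the seed GGAAUGU joins miR-1 with miR-206 of skeletal muscle. Outside the matched set, miR-23b shares the seed UCACAUU with miR-23a, and miR-30a shares that of miR-30c. Both were detected on both arrays, with probes that differ between the arrays. A seed outside these 10, AGCAGCA, is shown too because it joins 4 miRNAs detected on both arrays, namely miR-16, miR-195, miR-322 and miR-15b.
miR-30e: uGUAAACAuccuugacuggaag
miR-29b: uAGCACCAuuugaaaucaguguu
miR-29c: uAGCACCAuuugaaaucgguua
miR-125a-5p: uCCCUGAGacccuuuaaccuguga
miR-351: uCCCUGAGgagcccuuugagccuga
miR-16: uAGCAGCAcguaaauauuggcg
miR-195: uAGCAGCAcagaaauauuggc
miR-322: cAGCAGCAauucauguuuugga
miR-15b: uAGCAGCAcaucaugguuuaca
miR-206: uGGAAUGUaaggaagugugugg
A shared seed did not mean a shared place: miR-1 stood at 9 at day 14 and in the tied top group at day 2, while miR-206 stood at 59 and 23.

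In the rat genome (RefSeq, GRCr8), miR-22 lies on the plus strand at chr10:60805387-60805408, within no other annotated gene. miR-126 lies within the span of the protein-coding gene Egfl7 at chr3:29813219-29813240 on the plus strand, and miR-1 within the span of Mib1 at chr18:2160339-2160360 on the minus strand. miR-143 lies in the span of the long non-coding RNA Carmn at chr18:57371373-57371394 on the minus strand, 1340 bases from miR-145. miR-30c has 2 copies, of which that at chr5:139634505-139634527 (minus strand) lies in the span of Nfyc, 2999 bases from miR-30e, and the other at chr9:33253695-33253717 (plus strand). miR-24 has 2 copies too, and the one at chr19:40859481-40859502 (minus strand) lies 297 bases from miR-23a and 133 from miR-27a. miR-451 lies at chr10:63459585-63459606 (plus strand), 139 bases from miR-144. The table used gives gene spans only, so exon, intron and host strand are not given here.

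A few miRNAs carried most of the signal of the matched probes. The 10 highest probes held 62.2% of the net signal summed over matched probes at day 14 and 54.0% at day 2, and the 20 highest held 77.4% and 75.0%. The 10 highest at day 14 include miR-363, which was not detected and ranked 10 through a single bright spot of 18967. The single highest probe, miR-22, held 16.9% at day 14. At day 2 the highest probe held 5.74%. All of these day 2 shares are lower limits because 8 probes had reached the scanner's limit. The median probe had a net signal of 77.8 at day 14 and 119 at day 2, near the background on both arrays.

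**Figure D1:**
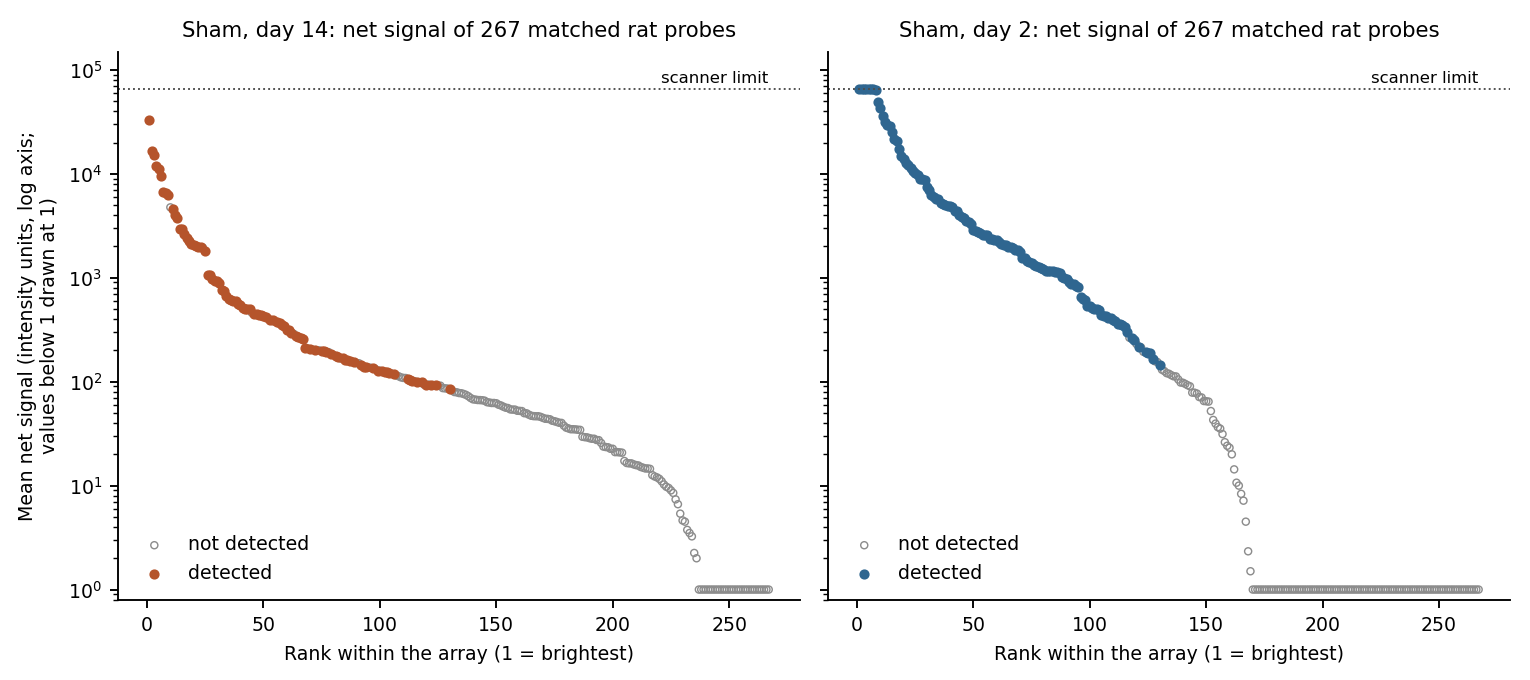
Mean net signal (intensity units, log axis) of the 267 matched rat probes against rank within the array, sham day 14 at left and sham day 2 at right; filled points are detected probes, open points are not, and the dotted line is the scanner limit. Signal falls steeply over the first ranks on both arrays, and 8 probes lie at the limit at day 2 and 0 at day 14.

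miR-22, a miRNA abundant in heart muscle cells, was the brightest probe at day 14. Its spots ranged from 30412.5 to 34644 and averaged 32952 ± 2006 (SD, 4 spots). At day 2 all 3 of its spots were saturated. It was 1 of 8 saturated probes, which share the tied rank of 4.5 at day 2 and have no order among themselves. All 8 were among the 9 brightest matched probes at day 14, with miR-451 as the other, so the top of the order was nearly the same set on both arrays.

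The other saturated probes, in day 14 order, began with miR-126 of endothelial cells at 16661 ± 1176, rank 2. miR-30c, of a family that in heart cells restrains the matrix factor CTGF, followed at 15238 ± 832. miR-29a, whose known targets are collagen messenger RNAs, had 11958 ± 955. The ranks of these 3 in single spot sets at day 14 stayed within 1 place of those given.

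miR-143, typical of smooth muscle, had 11098 ± 1202 at day 14, and miR-24, which is encoded in clusters with miR-23 and miR-27, had 9547 ± 262. miR-125b-5p, a relative of the worm miRNA lin-4, had 6646 ± 1336, with 1 spot at 4704 and the others from 6899 to 7711. miR-1, the muscle miRNA, had 6264 ± 1738, and its spots fell into a lower pair (4650.5 and 4903.5) and a higher pair (7446.5 and 8054). The day 14 order of miR-125b-5p, miR-451 and miR-1 is therefore within the spread of their spots: across spot sets their ranks covered 7 to 11, 8 to 9 and 7 to 10.

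Below the saturated group, miR-451, which marks red cells and their precursors, had 6497 ± 447 (rank 8) at day 14 and 43374 ± 1437 (rank 10) at day 2. miR-23a had 4024 ± 120 (rank 12) at day 14 and 49519 ± 3134 (rank 9) at day 2. miR-30e was 11th on both arrays, with 4561 ± 367 at day 14 and 36091 ± 2254 at day 2. These 3 were the highest unsaturated probes at day 2 and kept the same single rank there in all 3 spot sets.

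The next places were shared by miRNAs of varied origin. miR-130a ranked 15 at day 14 and 12 at day 2. miR-16 and miR-195, of a family that restrains the cell cycle, ranked 13 and 18 at day 14 and 15 and 14 at day 2. miR-101a ranked 16 at day 14 and 13 at day 2. miR-142-3p, specific to blood cells, had 2966 ± 84.8 (rank 14) at day 14 and 17196 ± 290 (rank 18) at day 2. None of these moved by more than 4 places between the arrays.

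The remaining members of the 20 highest by mean rank were miR-207 (rank 19 at day 14 and 17 at day 2), miR-499, let-7i and miR-126*. miR-499, which is spanned by the myosin gene Myh7b at chr3:164570616-164570636 (plus strand), had 1984 ± 321 (rank 22) at day 14 and 21681 ± 1367 (rank 16) at day 2. let-7i, of the let-7 family, had rank 17 at day 14 and 22 at day 2. miR-126* was the only probe with an asterisk among the 20, at rank 28 and 19.

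**Figure D2:**
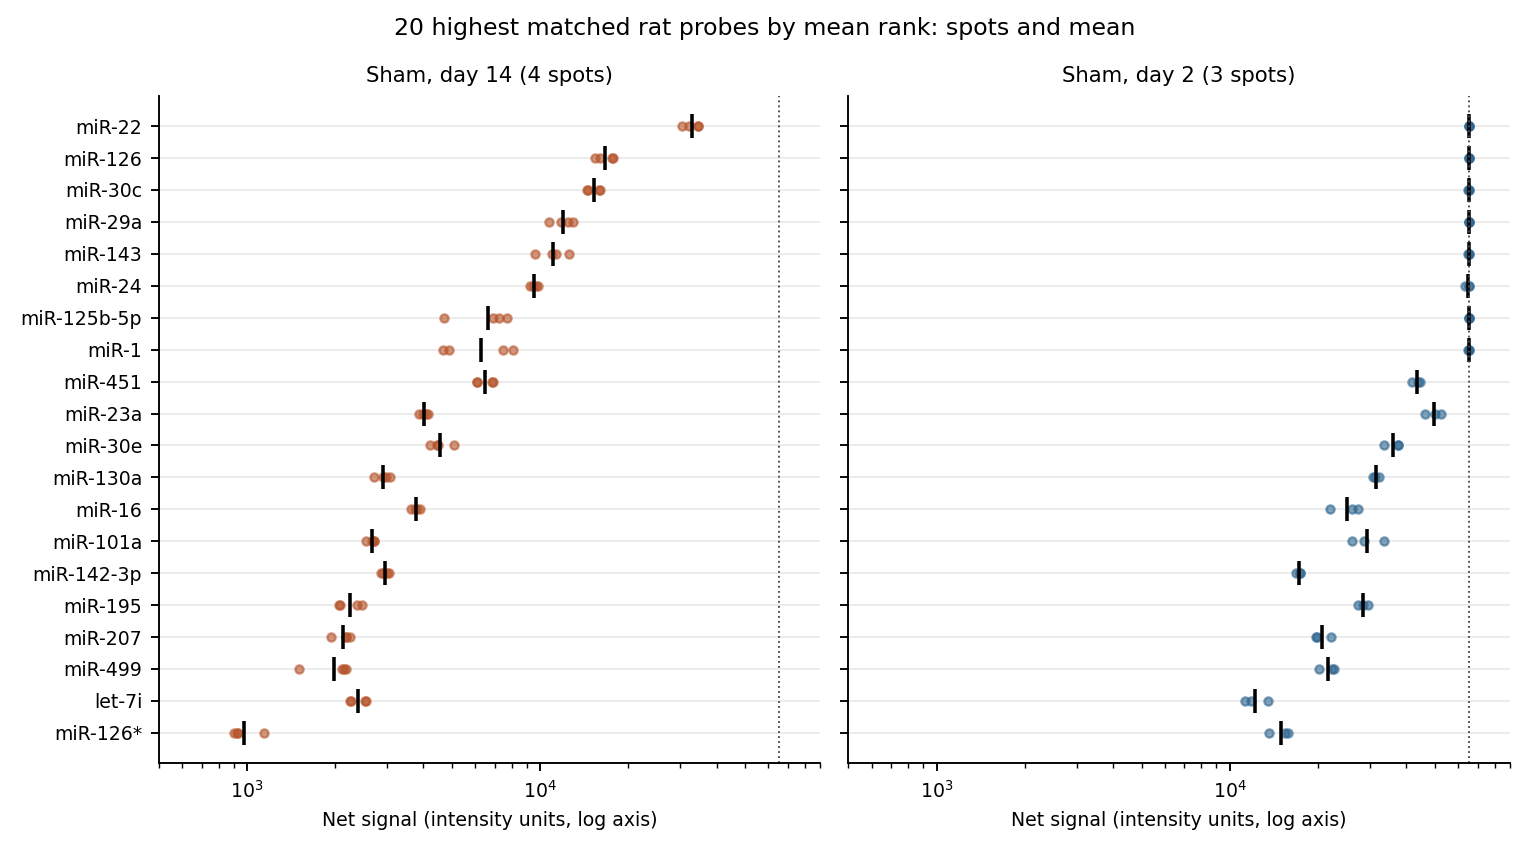
Net signal of each spot (points, intensity units, log axis) and the mean over spots (black ticks) of the 20 highest matched rat probes by mean rank, sham day 14 at left (4 spots) and sham day 2 at right (3 spots), with the scanner limit dotted. At day 14 the spots spread from 905 for miR-126* to 34644 for miR-22, and at day 2 the top 8 lie at the limit.

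The ranks of the 2 arrays correlated more among detected probes than among the rest. Over the 82 probes detected on both arrays, Spearman's correlation between the ranks was 0.865, and over the 74 of these that were not saturated it was 0.817. Over all 267 it was 0.731. Among the 185 detected on at most 1 array it was 0.344, and among the 131 detected on neither 0.184. These are correlations across probes, which are not independent replicates, and probes share the array, its background and the labelling. The sets also cover different ranges of rank, which by itself changes a correlation.

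The 10 highest of each array shared 9 probes, the 20 highest 17 and the 40 highest 32. The median difference in rank was 9.5 places over the 82 probes. It was within 10 places for 45 of them and over 25 for 11.

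Among detected probes, spots of one array were closer in order than the arrays were. For the 82 probes, pairs of spot sets within the day 14 array correlated at 0.937 to 0.988 and within the day 2 array at 0.982 to 0.993, while 1 set of each array gave 0.818 to 0.883. The sham and MI arrays of one day share generation and RNA amount but differ by infarction. They correlated at 0.914 over 86 probes detected on both at day 14 and at 0.970 over 122 at day 2. The 2 MI arrays, which differ in generation as the sham arrays do, correlated at 0.867 over 107 probes. Over all 267 matched probes this order was less clear. There the sham and MI arrays correlated at 0.864 at day 14 and at 0.978 at day 2, and the 2 MI arrays at 0.871. Pairs of spot sets then gave 0.747 to 0.856 within the day 14 array and 0.971 to 0.978 within the day 2 array, and 1 set of each array gave 0.659 to 0.794. Generation, RNA amount and day differ together in both comparisons across days and cannot be told apart.

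**Figure D3:**
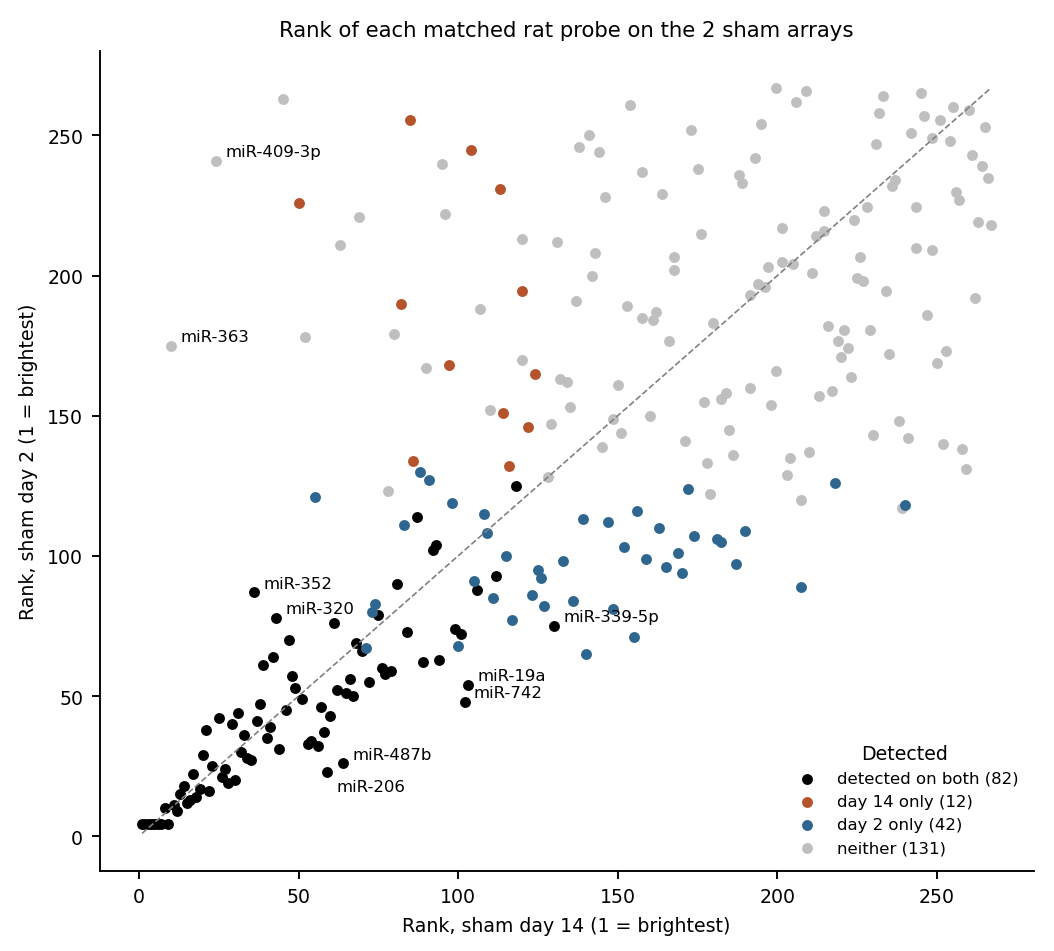
Rank of each of the 267 matched rat probes at day 14 (x axis) and day 2 (y axis), with colour showing on which array the probe was detected and the dashed line marking equal ranks. The 82 probes detected on both arrays lie nearer the line than the 131 detected on neither. The 82 reach only to rank 130 at day 14 and 125 at day 2, which by itself limits their distance from the line.

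Of the 82 probes, 48 (58.5%) had ranks in single spot sets that did not overlap between the arrays. Such a gap was therefore common, and 16 of the 48 stood nearer the top at day 14 and 32 at day 2. In single spot sets the 8 probes saturated at day 2 were not tied but ordered by net signal. That order has no meaning at the scanner's limit. The 48 include miR-22, miR-126 and miR-125b-5p on such ranks, so their gaps are not established. Of the 10 with the largest differences in rank, 5 in each direction, 8 were of this kind.

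Nearest the top at day 14 relative to day 2 was miR-352, at 36 at day 14 (36 to 44 across spot sets) and 87 at day 2 (77 to 92). miR-320 was at 43 at day 14 (39 to 50) and 78 at day 2 (77 to 83), and miR-98, a let-7 relative, at 42 (35 to 51) and 64 (61 to 66). The ranges of these 3 did not overlap. let-7b* (87 at day 14 and 114 at day 2) and miR-743b (47 and 70) had single-set ranks at day 14 that spanned their day 2 ranks. At day 14 the spots of miR-743b were 988 and 636.5 in 2 sets and 87 and 68 in the others.

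In the other direction, miR-339-5p stood at 130 at day 14 (89 to 128.5 across spot sets) and 75 at day 2 (71 to 81). miR-742 stood at 102 at day 14 and 48 at day 2, and miR-19a, of the miR-17-92 cluster, at 103 and 54. miR-487b, of the imprinted Dlk1-Dio3 cluster, stood at 64 at day 14 with 274 ± 26.8 and at 26 at day 2 with 9751 ± 1081. miR-206, the skeletal muscle relative of miR-1, stood at 59 at day 14 with 341 ± 89.1 and at 23 at day 2 with 11418 ± 381. None of these 5 had overlapping ranks between the arrays. The sequences printed above show how close miR-206 is to miR-1, which was saturated at day 2, and whether miR-1 adds to its signal was not tested.

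At the low end, the 10 lowest probes detected on both arrays were miR-21*, miR-148b-3p, miR-186, miR-350, miR-7a, miR-466c, let-7b*, miR-30b-3p, miR-339-5p and miR-128. Their net signals lay between 85.4 (miR-339-5p) and 176.5 (miR-21*) at day 14 and between 190 (miR-128) and 1541 (miR-148b-3p) at day 2. miR-128, known from brain, was the lowest by mean rank, with 98.9 ± 88.8 (rank 118) at day 14 and 190 ± 53.8 (rank 125) at day 2. Its spread at day 14 nearly equals its mean, so its place there is not settled.

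Detection itself differed between the arrays for 54 probes, 12 at day 14 only and 42 at day 2 only. The brightest detected at day 14 only were miR-292-3p, miR-26b*, miR-346, miR-455 and miR-363*. Of these, miR-292-3p had a mean of 426 with an SD of 683 over 4 spots, and miR-363* had the smallest SD of these 5, at 134 ± 22.8. The brightest at day 2 only were miR-335 (1990.5 ± 186), miR-361 (1932 ± 221), miR-10a-5p (1852 ± 175), miR-203 (1560 ± 106) and miR-9 (1298 ± 17.5). At day 14 these 5 had mean net signals of 55.8 (miR-203) to 203 (miR-361). There at most 1 of the 4 spots of each passed the detection rule, and they cannot be called absent. The mean of miR-361 (rank 71) was above that of some detected probes, such as miR-339-5p at 85.4.

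Probes detected on neither array shared little order between the arrays, with the Spearman's correlation of 0.184 given above. The 131 probes detected on neither array had a median net signal of 22.6 at day 14 and -72.7 at day 2, and their ranks in single spot sets varied by a median SD of 27.4 and 11.5 places. For the 82 detected on both, that SD was 4.77 places at day 14 and 2.04 at day 2. Net signal was below 0 for 28 matched probes at day 14 and for 98 at day 2.

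Some undetected probes nevertheless stood high at day 14 through 1 spot. miR-363 ranked 10 there with spots of 18967, 31, 23.5 and 0, and ranked 172 when the median of the spots replaced the mean. At day 2 it ranked 175. miR-409-3p ranked 24 with 1 spot at 7791 and the others from -17 to 11, and ranked 231 by the median. miR-871, miR-136 and miR-878 showed the same pattern, at 45, 52 and 55 by the mean and at 142, 106 and 144 by the median. In all 5 the bright spot lay in blocks 1 to 4 and rows 1 to 4 of the block, so each of these ranks rests on 1 spot.

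The order of the 2 arms was the same on both arrays for hairpins with an arm detected on each. Arms were paired by name, as a name with its asterisk form or as 5p with 3p. Of 46 hairpins with both arms among the matched probes by this rule, 24 had an arm detected on each array. In 24 of 24 (100%) the same arm was higher on both arrays, and in 22 (91.7%) the spots of the arms did not overlap on either array. In only 2 were both arms detected on both arrays. In the others the order sets a detected arm against an undetected one on at least 1 array. Among the hairpins left out by the detection rule the higher arm changed in some, such as miR-345 and miR-196a. In 14 the higher arm led at least 4-fold on both arrays. The folds in this section are between arms within 1 array. Where 1 arm was not detected or was saturated they are lower bounds, computed against the higher of that arm's own signal and the lowest signal of a detected probe on that array.

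The asterisk followed the order of signal in most hairpins. Of 16 hairpins named with an asterisk, the arm without it was higher in 14 on both arrays and the arm with it in 2. Among the 8 named 5p and 3p, 5p was higher in 4 and 3p in 4. Probes with an asterisk were detected on both arrays in 7 of 45 cases (15.6%), against 75 of 222 (33.8%) without one.

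Bounds have no order among themselves, so the largest ones are given without a ranking. miR-1 led miR-1* by at least 73.4-fold at day 14 and at least 449-fold at day 2. miR-1* averaged 11.0 ± 22.8 at day 14 and -37.0 ± 14.7 at day 2 and was not detected. miR-101a led its other arm by at least 31.2-fold at day 14 and at least 202-fold at day 2. miR-23a led miR-23a* by at least 26.7-fold at day 14 and at least 341-fold at day 2. Among 5p and 3p pairs, miR-325-3p led miR-325-5p by at least 23.7-fold at day 14 and at least 34.5-fold at day 2. miR-125a-5p led its 3p arm by at least 20.9-fold at day 14 and at least 30.1-fold at day 2.

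Of the hairpins paired among the matched probes, only those of miR-22 and miR-126 had both arms detected on both arrays. A further case among the matched probes lies outside the pairing by name. miR-24-2*, the other arm of 1 of the 2 copies of miR-24, was detected on both arrays. It had 898 ± 84.7 (rank 31) at day 14 and 3974 ± 231 (rank 44) at day 2. The signal of miR-24 cannot be divided between its copies, so no fold is given for it. For miR-22 and miR-126 the minor arms are shown here beside the major arms printed above, since each pair can be compared without a bound at day 14.
miR-22*: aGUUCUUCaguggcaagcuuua
miR-126*: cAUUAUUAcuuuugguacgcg
miR-22* had 396 ± 23.5 (rank 53) at day 14 and 6024 ± 491 (rank 33) at day 2, and miR-22 exceeded it 83.3-fold at day 14 and at least 10.8-fold at day 2. miR-126* had 977 ± 114 at day 14 and 14958 ± 1159 at day 2, and miR-126 exceeded it 17.1-fold at day 14 and at least 4.36-fold at day 2. The major arms were saturated at day 2, so the day 2 folds are bounds and cannot be set against those of day 14.

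The hairpins in which the arm with the asterisk was higher were those of miR-872 and miR-204. The arms of miR-872 are printed because their order is the reverse of their names.
miR-872: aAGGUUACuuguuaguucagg
miR-872*: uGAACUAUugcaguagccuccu
miR-872* had 507 ± 36.9 (rank 41) at day 14 and 4887 ± 797 (rank 39) at day 2, and miR-872 had 168 ± 108 and 386 ± 147. miR-872 was not detected at day 14, where the arm with the asterisk was at least 3.02-fold higher, and at day 2 it was 12.6-fold higher, with the spots of the arms apart on both arrays. For miR-204 the spots overlapped at day 14, with 110 ± 35.4 for miR-204*, which was not detected there, and 92.4 ± 57.3 for miR-204, and at day 2 miR-204* was at least 2.81-fold higher. At day 14 the order of the miR-204 arms turned round when the mean of pixels replaced the median (log2 0.78 for miR-204 over miR-204*) and when 1 spot set was left out (0.18).

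**Figure D4:**
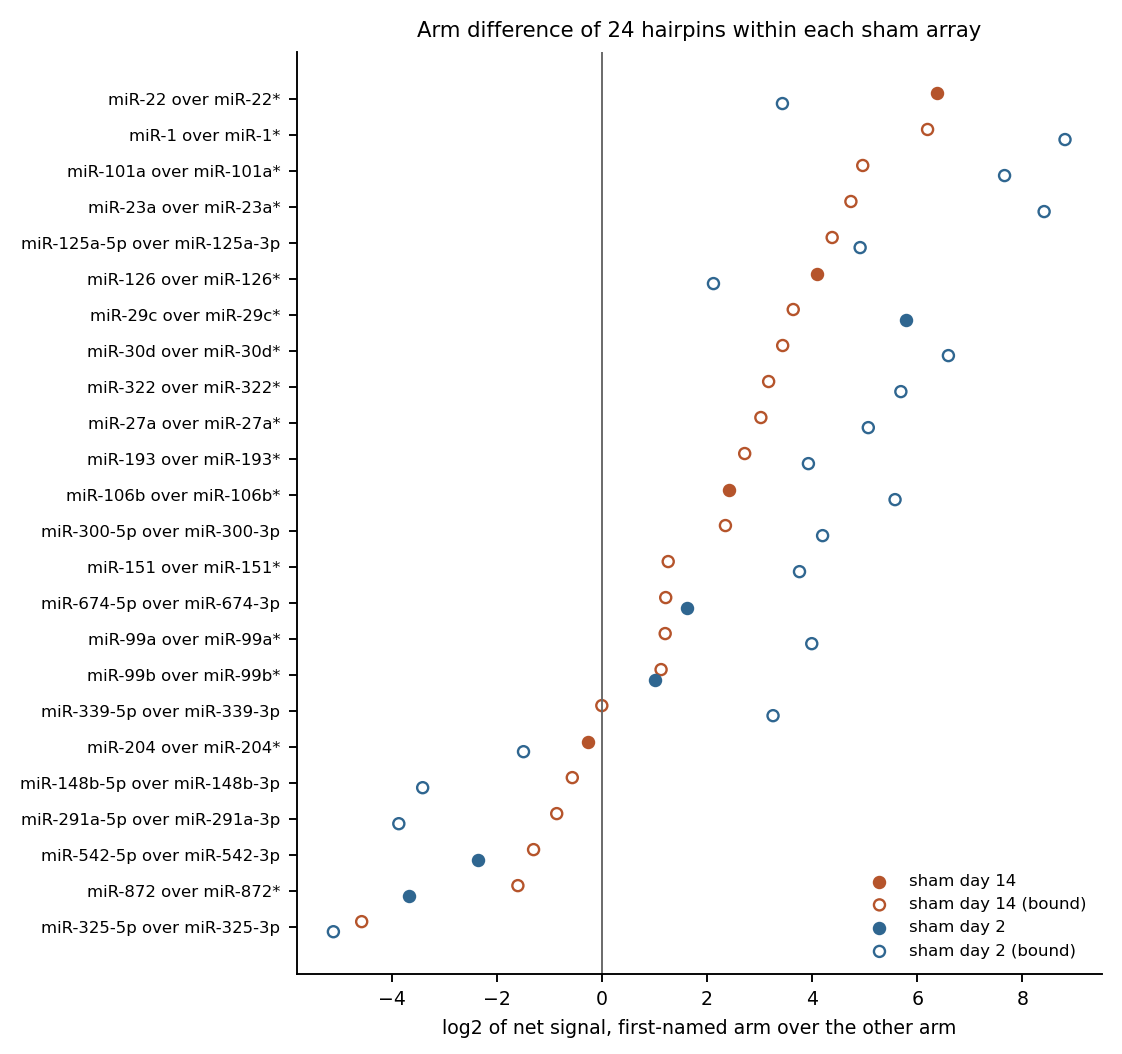
Log2 of the net signal of the first-named arm over the other arm within each sham array, for the 24 hairpins with an arm detected on each array; open points are bounds, where the dimmer arm was not detected or the brighter one was saturated, and filled points are not. Points of both days lie on the same side of 0 for each hairpin, except miR-339, whose bound at day 14 is at 0.

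Among hairpins with a smaller difference, the arms of miR-99b differed at least 2.18-fold at day 14 and 2.01-fold at day 2, and those of miR-674 at least 2.32-fold and 3.06-fold. The arms of miR-151 overlapped at day 14, where the leading arm had 205 ± 129. For miR-339 the day 14 signal of 85.4 for the 5p arm was the lowest of any detected probe, so no fold is given there, and at day 2 it led by at least 9.56-fold.

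When arms were paired by name alone, which adds hairpins with an arm whose probe was redesigned between generations, 15 more hairpins could be used. The same arm was higher on both arrays in 13 of them, among them let-7b, miR-29a, miR-30a and miR-378. Both arms were detected on both arrays for let-7b, miR-199a, miR-21, miR-29a, miR-30b and miR-30e. miR-199a and miR-21 gave another arm on each array. miR-199a-5p had 557 and miR-199a-3p 542 at day 14, with overlapping spots, against 908 and 5707 at day 2. miR-21 had 160 and miR-21* 176.5 at day 14, with overlapping spots, against 23861 and 962 at day 2. Since the miR-21 and miR-199a-5p probes were not the same on the 2 arrays, these differences between days are not comparisons of one probe.

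The tissue label was read against markers. Both matched heart muscle miRNAs, miR-1 and miR-499, were detected on both arrays, at ranks of 9 and 22 at day 14 and 4.5 and 16 at day 2, where the median of all matched probes is 134. The other 3, miR-133a, miR-133b and miR-208, were redesigned between the generations and were placed beside the matched probes within each array. miR-208 stood at place 7 at day 14 and 1 (saturated) at day 2, miR-133a at 12 and 1 (saturated) and miR-133b at 4 and 19. All 5 were thus detected on both arrays, against 30.7% of all matched probes and 28 of all 70 redesigned probes.

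Most blood, vessel and stromal miRNAs were also high. The endothelial pair miR-126 and miR-126* stood at 2 and 28 at day 14 and at 4.5 and 19 at day 2. The red cell miRNAs miR-451 and miR-144 stood at 8 and 23 at day 14 and at 10 and 25 at day 2. Whether blood was flushed from the hearts is not known here. The leukocyte miRNAs miR-142-3p and miR-223 stood at 14 and 77 at day 14 and at 18 and 58 at day 2, and miR-150, whose probe was redesigned, took place 14 at day 14 and 44 at day 2. miR-142-5p, also redesigned, was not detected at day 14, at 173 ± 21.3 (place 83), and had 2866 ± 180 (place 51) at day 2. The 4 matched miRNAs of smooth muscle and fibroblasts, miR-143, miR-145, miR-214 and miR-199a-3p, stood between 5 and 40 at day 14 and between 4.5 and 47 at day 2. All 10 matched miRNAs of these lists were detected on both arrays, against 30.7% of matched probes.

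Markers of tissues other than heart, vessel and blood were mostly not detected on both arrays. Of 19 matched probes for skeletal muscle, brain, epithelium, pancreas and pluripotent cells, 3 were detected on both arrays, namely miR-206, miR-128 and miR-291a-3p, against 30.7% of all matched probes. Brain miR-9 was detected at day 2 only, as given above. Of pluripotent cell miRNAs, miR-292-3p was detected at day 14 only, and miR-290, whose probe was redesigned, at day 2 only, with 6.0 ± 20.5 (place 229) at day 14 and 3521 ± 294 (place 48) at day 2. The 9 epithelial miRNAs had a median rank of 207.5 at day 14 and 164 at day 2, and of these miR-203 at day 2 was the only one detected. The pancreatic miR-375, miR-216a and miR-217 were detected on neither array, nor was neuronal miR-124, with 22.6 ± 5.0 at day 14 and 7.17 ± 12.6 at day 2. The liver miRNA miR-122, whose probe was redesigned, was not detected on either array, at 53.0 ± 21.2 at day 14 and 61.7 ± 71.2 at day 2.

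**Figure D5:**
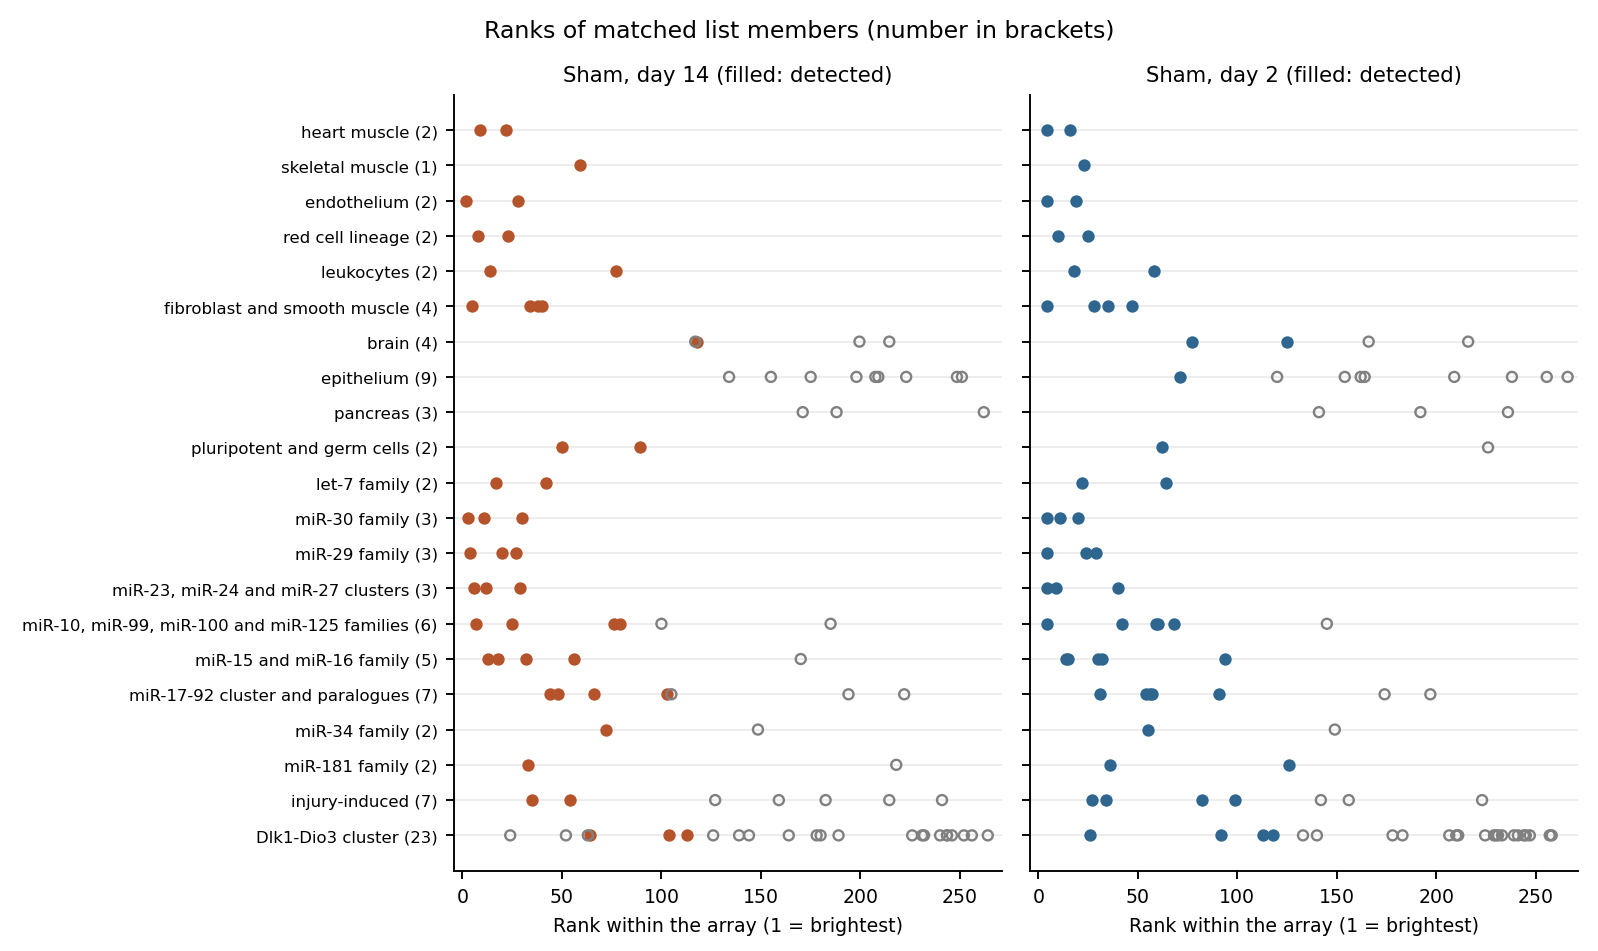
Rank within the array (1 = brightest) of the matched members of each tissue or family list, sham day 14 at left and sham day 2 at right; filled points were detected and open points were not, and the number of matched members is in brackets. Lists of heart muscle, vessel and blood lie at low ranks, and those of epithelium and pancreas lie mostly at ranks over 130.

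Families differed as well. All matched members of the miR-30 (3), miR-29 (3) and miR-23, miR-24 and miR-27 (3) groups were detected on both arrays. Of all matched probes, 30.7% were. The miR-30 members stood at 3, 11 and 30 at day 14 and at 4.5, 11 and 20 at day 2, in the order miR-30c, miR-30e and miR-30d on both arrays. The miR-29 members miR-29a, miR-29b and miR-29c stood at 4, 20 and 27 at day 14 and at 4.5, 29 and 24 at day 2. The last 2 changed order, and the ranks of miR-29b in single spot sets spanned 24 to 35 at day 2, so the order of that pair is within its spread there.

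miRNAs encoded close together often stood at different places. miR-143 and its neighbour miR-145 stood at 5 and 34 at day 14 and at 4.5 and 28 at day 2. miR-24, miR-23a and miR-27a, within 297 bases, stood at 6, 12 and 29 at day 14 and at 4.5, 9 and 40 at day 2. miR-195 and its neighbour miR-497, 337 bases apart, stood at 18 and 170 at day 14 and at 14 and 94 at day 2. miR-19b, miR-19a and miR-92a stood at 48, 103 and 194 at day 14 and at 57, 54 and 197 at day 2. The member nearest the top was the same on both arrays in the first 3 of these groups. In the last it was miR-19b at day 14 and miR-19a at day 2. At day 2 the ranks of these in single spot sets overlapped, at 51 to 72 for miR-19b and 50 to 62 for miR-19a. miR-214 and miR-199a-3p, 5419 bases apart, also changed order, at 38 and 40 at day 14 and at 47 and 35 at day 2. Their ranks in single spot sets overlapped at day 14, at 33 to 47 for miR-214 and 37 to 45 for miR-199a-3p. miR-24, miR-19b and miR-92a have a further copy elsewhere in the genome, so their signals cannot be assigned to 1 group. That neighbours share a transcript was not tested. Differences in capture between the probes were not measured.

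Beside the counts of this paragraph, the share of all matched probes detected on both arrays was 30.7%. Of the 5 matched miR-15 and miR-16 miRNAs, 4 were detected on both arrays, and miR-497 was detected at day 2 only. miR-15b had 372 ± 27.0 (rank 56) at day 14 and 6220 ± 53.4 (rank 32) at day 2. Of the 7 matched members of the miR-17-92 cluster and its relatives, miR-106b, miR-19b, miR-93 and miR-19a were detected on both arrays, with ranks from 44 to 103 at day 14 and from 31 to 57 at day 2. In the miR-10, miR-99, miR-100 and miR-125 families, 4 of 6 were detected on both, led by miR-125b-5p, while miR-10b was detected on neither. Members of this last group of families therefore ran from the top to the background of the ranking.

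Among 7 matched miRNAs often reported to respond to injury, miR-146a and miR-146b were detected on both sham arrays, at ranks of 35 and 54 at day 14 and 27 and 34 at day 2, which makes 2 of 7 against 30.7% of all matched probes. miR-221 and miR-222 were detected at day 2 only, with 531.7 ± 10.4 and 1171 ± 88.8. miR-31, miR-132 and miR-212 were detected on neither. The Dlk1-Dio3 cluster is an imprinted gene region. Of the 23 matched miRNAs listed for it, miR-487b alone was detected on both arrays, against 30.7% of all matched probes. The list is not complete: miR-300-5p, which is not on it, lies 3016 bases from miR-487b and was detected on both arrays, with 436 ± 55.9 (rank 49) at day 14 and 2668 ± 190 (rank 53) at day 2. Of the 6 members whose probes were redesigned, 0 were detected on both arrays, against 28 of all 70 redesigned probes. Of these 6, miR-494 was not detected at day 14 (place 261) but had 15037 ± 4435 (place 19) at day 2. The median rank of the 23 was 180 at day 14 and 224.5 at day 2.

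Several of the best-known heart miRNAs fall outside the matched set because 70 rat names have another probe ID on the newer generation. Their places are those they would have taken among the matched probes of their own array. Of the 70, 28 were detected on both arrays and 8 were within the first 20 places on both. miR-30b-5p (place 11 at day 14 and 1 at day 2), miR-23b (7 and 10), miR-378 (12 and 9), let-7c (14 and 12) and let-7b (10 and 18) were among these 8. Others differed widely: let-7f stood at 68 at day 14 and at 1 (saturated) at day 2, let-7a at 46 and 1 (saturated), miR-26a at 41 and 1 (saturated) and miR-21 at 87 and 16. miR-27b stood at 26 at day 14 and at 96 at day 2.

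The ranks of these names correlated less. Over the 28 detected on both arrays Spearman's correlation was 0.450, against 0.865 for the 82 matched probes detected on both, and over all 70 it was 0.636, against 0.731 for all 267 matched probes. These sets differ in size and in their range of ranks. The share of probe design, array generation and day in this gap was not tested.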

How the data were processed

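Heart RNA was hybridized to 4 arrays, of which the 2 sham arrays were ranked. Groups come from the titles, since all samples carry one treatment text. Per the file headers, the scanner files as deposited give spot and local background intensity at 532 nm, measured in Mapix 4.5.0 from images with 5 µm pixels. The authors also deposited a table of log2 values whose background correction and centring are not stated in the labels or headers. Its column medians were 4.70 for sham day 14 and 6.36 for sham day 2. Over unsaturated detected probes its Spearman correlation with the scanner values was 0.975 (93 probes) at day 14 and 0.942 (114 probes) at day 2. It was used as an alternative.

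Net signal (median foreground minus median background) was averaged over the 4 spots of a probe at day 14 and over the 3 spots of blocks 1 to 36 at day 2, then ranked within the array in Python 3.11.15 with pandas 2.3.3 and SciPy 1.17.1. Probes with at least 50% of spots at the scanner's limit shared 1 top rank. Negative means were set to 0 in shares of summed signal. The alternatives were all spot sets at day 2, the median of spots, mean pixels, no background subtraction, normexp with an offset of 50 (limma 3.58.1 in R 4.3.3), the deposited table, other treatments of saturation, detection and matching, and each spot set left out. The calculation was tested on simulated arrays.

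The miRNAs named are the 20 highest by mean rank, the 10 lowest detected on both arrays, the 5 with the largest rank difference in each direction, the 5 brightest detected on 1 array each, the hairpins with the 10 largest arm differences or with a changed arm, members of 23 lists and the 10 brightest probes of each array outside the ranking. Other arms and single-spot probes were named after their values were seen. The members and lists were chosen with earlier results of these data known. Some miRNAs are not reported here. With 1 array per day no test was made, and signal over background limits the precision.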

Additional observations from a re-analysis of the deposited data

Results flagged for a closer look

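Signal was found in rat probes that the ranking leaves out because their ID and exact name occur on only 1 of the arrays. Some have a counterpart under another name on the other array. Of 334 such probes on the day 14 array, 45 were detected, a smaller share than the 94 of 267 matched probes (35.2%) there. The brightest was miR-1188-3p at 1996 ± 497 (SD over 4 spots), which would take place 22 among the matched probes. It was followed by miR-133a*, the other arm of a heart muscle hairpin, at 1252.5 ± 78.2 (place 26), and miR-3596c at 1216 ± 177 (place 26). The next 7 were miR-883*, miR-667, miR-34b*, miR-664-1*, miR-3571, miR-433* and miR-138-2*, from 893 for miR-883* down to 543 for miR-138-2*. The other arms of further heart muscle hairpins were dimmer, with 276 ± 33.2 for miR-208* and 264 ± 46.8 for miR-499*, and miR-133b* was not detected, at -5.1 ± 3.0. Of 5 such probes on the day 2 array, 3 were detected, against 46.4% of matched probes there. They were miR-140 at 2271, the probe named for miR-17-5p and miR-17 at 2228, and miR-129* at 1054. At day 14 the probe named miR-17-5p was not detected, at 47.5 ± 15.9, and that named miR-129-1* and miR-129-2* was, at 494 ± 89.8.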

How the results depend on the processing

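The agreement of the ranks over probes detected on both arrays was 0.865, with 0.843 for mean pixels, 0.842 for the deposited table, 0.817 without saturated probes, 0.895 when detection needed 3 SDs in all spots and 0.768 for matching by name alone, an alternative chosen after seeing the data. Over all matched probes it was 0.731, with 0.794 for the median of spots, 0.678 for mean pixels, 0.786 for the deposited table and 0.712 to 0.785 with 1 spot set left out. The cause of these shifts was not tested.

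The share of the 20 highest at day 14 was 77.4%, with 80.6% for the median of spots, 73.2% for mean pixels, 68.6% without background subtraction, 67.7% with normexp, 80.0% in the deposited table, 63.2% without saturated probes, 68.5% by name alone and 76.9% to 80.1% with 1 spot set left out. At day 2 it was 75.0%, with 74.7% for mean pixels and for matching by ID alone, 70.9% without background subtraction, 67.7% with normexp and also without saturated probes, 76.7% in the deposited table and 63.3% by name alone. With 10 in place of 20, the shares were 62.2% at day 14 and 54.0% at day 2 and the overlap was 9. With 40, they were 88.3% and 88.8%, and the overlap was 32.

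Detection over 3 SDs in all spots left 48 probes detected on both arrays and 12 usable hairpins, with the same arm higher in 12. By name alone, 37 of 39 hairpins kept the arm, 11 of the 20 highest stayed among them, and 65 list members were detected on both arrays in place of 43. Leaving out saturated probes left 12 of the 20 highest, since it removes the other 8. The arm difference of miR-204 at day 14 was log2 0.78 with mean pixels and -0.40 to 0.18 with 1 spot set left out, against -0.25. No paired analysis was possible because each day has 1 array and the labels give no replicate numbers.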
